A study of Mus musculus with 8 samples.

Results

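Blood vessels run through the pancreas bud from the time it forms, and the RNA of their endothelial cells was measured together with that of the bud. The endothelial and angiogenic genes described here are 38 of the 24341 genes in the deposited table, chosen by symbol as genes of vessel biology, with earlier results of these data known. They comprise 33 genes of the endothelial cell (14 surface, junction and secreted proteins, 10 receptors and 9 transcription factors) and 5 ligands that signal to it. Total RNA came from E11.0 pancreas buds, with 5 WT libraries and 3 Lats1/2-null libraries (genotype Pdx1Creearly;Lats1f/f;Lats2f/f). The labels name CD1 as the strain of both groups, and whether the floxed lines share that background with the controls is not given in the sources used here. By the methods, mutants were set beside littermates that could be WT or heterozygous, while the labels call all 5 controls WT. In Lats1/2-null embryos, Cre recombinase driven by Pdx1 removes the floxed kinase genes Lats1 and Lats2 from pancreatic epithelium, so the endothelial cells themselves are not a target of the deletion. Each library was made from a single bud, from which the mesenchyme had been pulled away with forceps before 35 ng of RNA was taken.

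Endothelial cells line the vessels and hold together through junctions built on VE-cadherin. VEGF ligands made by the surrounding tissue act on the receptor kinases KDR, FLT1 and FLT4, with the neuropilins as co-receptors, and drive vessel growth. Angiopoietins act through TEK and its relative TIE1 to set vessel stability, while apelin acts through APLNR. ETS factors (ERG, FLI1, ETS1) and SOXF factors (SOX7, SOX17, SOX18) drive many endothelial genes, and TAL1, LMO2 and GATA2 are shared with blood cells. In the early pancreas, signals from endothelium act on the epithelium, which in turn makes VEGF.

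All values are FPKM, fragment numbers scaled to the length of the transcript and to the size of the library, so levels of different genes are per length. Among libraries, what 1 fragment is worth, read from the steps of low values, lay between 0.966 and 1.04 relative to WT 1, apart from WT 5 at 1.27, which was thus the shallowest. Between 16117 and 16982 genes were above 0 in each library. Lats1 was at 14.1 to 16.6 FPKM in the 5 WT libraries and 10.1 to 13.8 FPKM in the 3 Lats1/2-null libraries, without overlap (exact permutation p = 0.0179, the smallest that 56 splits allow). Lats2 was at 11.6 to 14.7 FPKM in WT and 11.1 to 13.4 FPKM in Lats1/2-null libraries, with overlap. The tissue also holds cells outside the reach of Cre, and their part in the levels of Lats1 and Lats2 was not tested. A pair of libraries stood apart and touch most results that follow. In WT 5, a list of 24 hypoxia response genes summed to 2655 FPKM, against 975 to 1107 FPKM in the other WT libraries. In Lats1/2-null 3, 26 epithelial genes summed to 1502 FPKM, against 608 and 739 FPKM in the other Lats1/2-null libraries.

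Markers of endothelium were detected in every library, though detection alone does not show which cells made the RNA. Every one of the 38 genes was above 0 in each of the 8 libraries. Each passed the minimum mean of 0.5 FPKM needed for testing, as did 13777 of the 24341 genes in all. Pecam1, an adhesion molecule of endothelial junctions, was at 13.4 to 35.7 FPKM and Cdh5, which encodes VE-cadherin, at 19.9 to 47.7 FPKM across the libraries. Averaged over all libraries, the levels of the members ran from 1.09 FPKM for Apln to 42.4 FPKM for Plvap, and 4 members were under 2 FPKM. Endothelial transcripts were thus present in all buds. Transcripts of mesenchyme also remained after the dissection. A list of 21 mesenchyme genes summed to 987 to 1115 FPKM in WT and to 562 to 977 FPKM in Lats1/2-null libraries.

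The promoters of the members that differed most were read from the RefSeq promoter table (build GRCm38.p6), which holds 19 of the 38 genes with 26 start sites. The 250 bases before the start are shown for the 5 genes that have an entry among the 8 members with an unadjusted p under 0.05, each 5′ to 3′ along its own strand, with the ETS core GGAAG or its reverse complement CTTCC in capitals.
Emcn, chr3:137340828-137341077, plus strand: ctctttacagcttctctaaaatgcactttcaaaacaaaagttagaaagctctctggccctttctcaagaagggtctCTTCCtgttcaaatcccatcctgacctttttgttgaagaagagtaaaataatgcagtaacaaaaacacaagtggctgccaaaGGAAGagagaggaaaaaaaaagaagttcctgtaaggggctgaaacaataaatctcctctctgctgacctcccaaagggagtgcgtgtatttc
Tie1, chr4:118489850-118490099, minus strand: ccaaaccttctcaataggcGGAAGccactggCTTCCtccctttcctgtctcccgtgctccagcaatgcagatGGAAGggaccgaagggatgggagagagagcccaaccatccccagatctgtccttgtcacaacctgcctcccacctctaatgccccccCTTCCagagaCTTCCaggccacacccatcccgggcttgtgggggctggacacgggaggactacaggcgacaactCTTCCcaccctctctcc
Robo4, chr9:37401722-37401971, plus strand: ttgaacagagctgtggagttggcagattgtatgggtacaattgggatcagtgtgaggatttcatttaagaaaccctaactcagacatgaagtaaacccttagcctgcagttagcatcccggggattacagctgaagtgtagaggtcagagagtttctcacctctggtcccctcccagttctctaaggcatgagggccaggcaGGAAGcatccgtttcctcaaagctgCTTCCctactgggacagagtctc
Tek, chr4:94739039-94739288, plus strand: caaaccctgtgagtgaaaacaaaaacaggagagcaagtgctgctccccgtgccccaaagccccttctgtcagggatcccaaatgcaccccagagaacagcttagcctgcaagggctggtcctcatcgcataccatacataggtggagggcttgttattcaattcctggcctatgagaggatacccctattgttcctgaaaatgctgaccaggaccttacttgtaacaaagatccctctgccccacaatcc
Nrp2, chr1:62703067-62703316, plus strand: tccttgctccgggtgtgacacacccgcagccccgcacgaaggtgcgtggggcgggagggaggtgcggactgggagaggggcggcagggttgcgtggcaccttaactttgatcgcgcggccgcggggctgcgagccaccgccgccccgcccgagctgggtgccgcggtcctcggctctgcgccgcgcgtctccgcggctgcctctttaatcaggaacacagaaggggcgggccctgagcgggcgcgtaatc
Tie1 held 6 cores, at 231, 219, 178, 91, 81 and 17 bases before the start. Emcn held 2, at 174 and 92 bases, and Robo4 held 2, at 48 and 23 bases, while Tek and Nrp2 held none in this window. In the authors' gene positions Robo4 begins at chr9:37401897, inside the window shown, so its cores lie past that start. The core is short and common. It was in 14 of 22 start sites of endothelial members (63.6%) and in 64.1% of all 32851 promoters in the table. Other motifs were also searched on both strands. The SOX core ACAAT was in 22.7% of member start sites against 27.7% of all. For the TEAD motif GGAATG the shares were 13.6% and 12.6%. For the GATA motif GATAA they were 13.6% and 22.6%. The HIF core ACGTG was in 0 of the 22 and in 16.6% of all promoters. Among the 4 start sites of ligand genes, 1 held the HIF core, an internal start of Vegfa, 211 bases upstream. The ETS core and the TEAD motif begin alike, but no single site can be both.

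Whether the vessels of the bud differ when the epithelium lacks both kinases was asked by comparing the genotypes. Counts of genes lower or higher go by the difference in mean log2(FPKM + 1), here and for each list that follows. By it, endothelial genes were lower in Lats1/2-null libraries for 31 of 33 members, with a median log2 fold change (Lats1/2-null minus WT) of -0.35, whereas the median over all 13777 tested genes was -0.01 and 53.1% of them were below 0. Of the 33, 8 had an unadjusted p under 0.05 in limma, all lower, which is 24.2% of them beside 4.99% of all tested genes. None passed at an adjusted p of 0.05, a threshold met by 2 genes in the whole table (0.0145%). The smallest adjusted p of any member was 0.238, for Emcn. In 4 members (Emcn, Tek, Robo4 and Fli1) all 3 Lats1/2-null libraries lay below all 5 WT libraries, or 12.1% beside 3.06% of all tested genes. The reverse, all 3 above all 5, held for 0 of the 33, beside 4.46% of all tested genes. Summed over the 33 genes, the WT libraries were at 568, 458, 372, 441 and 579 FPKM and the Lats1/2-null libraries at 419, 392 and 282 FPKM, so that the ranges overlapped and the Lats1/2-null mean was 0.754 times the WT mean. In bulk RNA, fewer endothelial cells and less RNA of these genes per cell cannot be told apart, and neither can a larger amount of epithelium beside the same vessels.

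**Figure D1:**
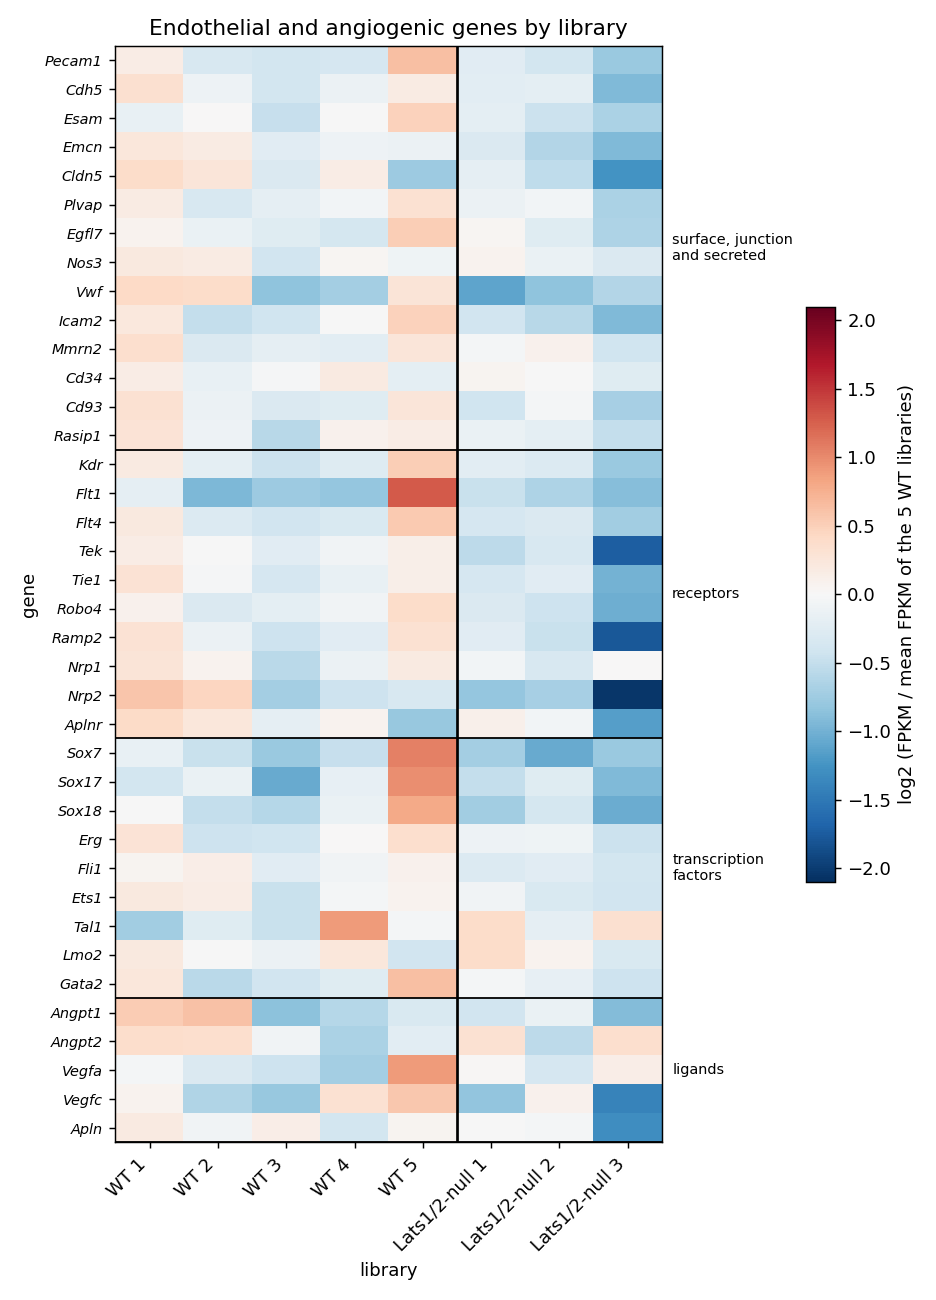
Level of each of the 38 genes in each library, as log2 of its FPKM over the mean FPKM of the 5 WT libraries (red, above that mean; blue, below it), with the genes in rows by role and the libraries in columns. The column of Lats1/2-null 3 is the lowest of all in 25 of 38 genes, and WT 5 or WT 1 is the highest in 33.

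Among the 14 surface, junction and secreted proteins, each had a lower mean in the Lats1/2-null libraries (median log2 fold change -0.34), as did 53.1% of all tested genes. Of the 14, 2 had an unadjusted p under 0.05 (14.3%, beside 4.99% of all tested genes in that direction). Emcn encodes endomucin, a sialomucin of venous and capillary endothelium, and lies at chr3:137341078-137431069 in the authors' mm10 table. Its level was 19.0, 18.3, 13.7, 15.0 and 14.8 FPKM in WT 1 to 5 and 13.1, 10.5 and 8.46 FPKM in Lats1/2-null 1 to 3. The groups did not overlap, and every Lats1/2-null value was under the lowest WT value. Means were 16.1 ± 2.35 FPKM (SD, n = 5) and 10.7 ± 2.31 FPKM (SD, n = 3), which on the log2 scale is a fold change of -0.56 ± 0.15 (SE, limma adjusted p = 0.238, exact permutation p = 0.0179). Icam2, an adhesion molecule for leukocytes, was at 18.7, 11.4, 11.9, 15.9 and 22.4 FPKM in WT and 12.1, 10.8 and 8.41 FPKM in Lats1/2-null libraries. Lats1/2-null 1 lay above WT 2 and WT 3, and the log2 fold change was -0.55 ± 0.22 (SE, limma adjusted p = 0.393).

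Cdh5 was at 47.7, 34.8, 28.8, 34.5 and 42.5 FPKM in WT libraries and at 32.4, 32.6 and 19.9 FPKM in Lats1/2-null libraries. Only Lats1/2-null 3 was under the WT range, and the log2 fold change was -0.41 ± 0.20 (SE, limma adjusted p = 0.489). Pecam1 was at 25.5, 18.2, 17.6, 17.9 and 35.7 FPKM against 19.6, 17.6 and 13.4 FPKM. Here WT 5 stood well above the other WT libraries, which overlapped Lats1/2-null 1 and 2. Cldn5, a claudin of endothelial tight junctions, was at 12.8, 11.7, 7.99, 10.9 and 5.79 FPKM against 8.62, 6.79 and 4.12 FPKM, and WT 5 was the lowest WT library in this case. Vwf, the von Willebrand factor, had a WT mean of 2.01 ± 0.77 FPKM (SD, n = 5) and a Lats1/2-null mean of 1.122 ± 0.19 FPKM (SD, n = 3), with a WT range from 1.11 to 2.68 FPKM that took in 2 of the 3 Lats1/2-null values. The genes nearest to 0 in this group were Cd34, the sialomucin of endothelial and blood progenitors (log2 fold change -0.06), Nos3, the endothelial nitric oxide synthase (-0.08), and Mmrn2, a matrix protein laid down by endothelium (-0.09). Plvap, the diaphragm protein of fenestrated endothelium and the most abundant member, was at 35.9 to 56.6 FPKM in WT and at 41.6, 43.4 and 28.5 FPKM in Lats1/2-null libraries (-0.25). Esam, a junctional adhesion molecule, was at 5.28 to 10.3 FPKM in WT and 4.68 to 6.45 FPKM in Lats1/2-null libraries (-0.35). The secreted factor Egfl7 was at 17.2 to 31.7 FPKM and 14.2 to 22.8 FPKM (-0.24). For Cd93, a C-type lectin of endothelium, the ranges were 8.58 to 13.2 FPKM and 6.55 to 10.3 FPKM (-0.32). Rasip1, needed for vessels to form a lumen, was at 6.41 to 11.8 FPKM and 6.86 to 8.81 FPKM (-0.22). In all 4 the ranges of the groups overlapped.

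The 10 receptors included 5 of the 8 members with an unadjusted p under 0.05, or 50% of the receptors, beside 4.99% of all tested genes in the lower direction. All 10 had a lower mean in the Lats1/2-null libraries (median log2 fold change -0.41), as did 53.1% of all tested genes. Tek encodes the angiopoietin receptor TIE2 and lies at chr4:94739289-94874976. It was at 7.88, 7.01, 5.99, 6.67 and 7.70 FPKM in WT 1 to 5 and at 4.81, 5.58 and 2.12 FPKM in Lats1/2-null 1 to 3. No Lats1/2-null value reached the WT range, in which the libraries were close together. The log2 fold change was -0.71 ± 0.22 (SE, limma adjusted p = 0.307, exact permutation p = 0.0179). Tie1, its relative without a ligand of its own, was at 12.4, 9.86, 7.83, 8.98 and 10.8 FPKM against 7.82, 8.46 and 4.99 FPKM. Lats1/2-null 2 lay inside the WT range and Lats1/2-null 1 just under it (log2 fold change -0.45 ± 0.18, SE, limma adjusted p = 0.394). Robo4, a roundabout receptor that stabilizes vessels, was at 5.04, 3.82, 4.11, 4.47 and 6.13 FPKM against 3.80, 3.50 and 2.33 FPKM. The gap between the groups was small, with 3.80 FPKM in Lats1/2-null 1 beside 3.82 FPKM in WT 2 (exact permutation p = 0.0357).

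Nrp2, the neuropilin of veins and lymphatics, had the most negative log2 fold change of the 38 members, -1.04 ± 0.36 (SE, limma adjusted p = 0.335). It was at 50.1, 45.6, 20.3, 24.6 and 26.3 FPKM in WT and 19.0, 20.5 and 8.07 FPKM in Lats1/2-null libraries. WT 1 and WT 2 were high, WT 3 was just below Lats1/2-null 2, and the WT SD was 13.5 FPKM (n = 5). For Cdh5 the highest WT libraries were instead WT 1 and WT 5, at 47.7 and 42.5 FPKM. Which cells of the bud made the Nrp2 RNA was not tested. Ramp2, the subunit that makes the calcitonin receptor-like protein a receptor for adrenomedullin, was at 51.0, 37.6, 30.6, 34.9 and 51.6 FPKM against 34.8, 29.7 and 11.9 FPKM. Its log2 fold change of -0.77 ± 0.32 (SE, limma adjusted p = 0.411) was carried largely by Lats1/2-null 3, since the value without that library was -0.32. Kdr, the main VEGF receptor, was at 30.1, 22.9, 19.5, 22.02 and 37.99 FPKM in WT and at 22.8, 21.7 and 15.5 FPKM in Lats1/2-null libraries (log2 fold change -0.37 ± 0.21, SE, limma adjusted p = 0.569). Apart from Lats1/2-null 3, the groups overlapped. Flt4, the VEGFC receptor, was at 7.80, 5.57, 5.13, 5.41 and 9.97 FPKM against 5.28, 5.51 and 4.09 FPKM (-0.35). Nrp1, the co-receptor of KDR that is also made by mesenchyme and neurons, stood nearest to 0 of the receptors, with a log2 fold change of -0.09 and with Lats1/2-null 3 at 26.3 FPKM, the highest of its group. Aplnr, the apelin receptor of veins, was at 19.0, 16.9, 12.5, 15.1 and 8.31 FPKM against 15.4, 13.8 and 6.42 FPKM, with WT 5 and Lats1/2-null 3 the low libraries.

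Flt1, the VEGF receptor that acts mostly as a decoy, was at 8.98, 5.32, 5.98, 5.82 and 24.8 FPKM in WT 1 to 5 and at 7.41, 6.54 and 5.46 FPKM in Lats1/2-null 1 to 3. WT 5 was thus 3.81 times the mean of the other WT libraries, and the remaining 7 libraries were mixed. The log2 fold change was -0.36 with all libraries and 0.0044 without WT 5.

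**Figure D2:**
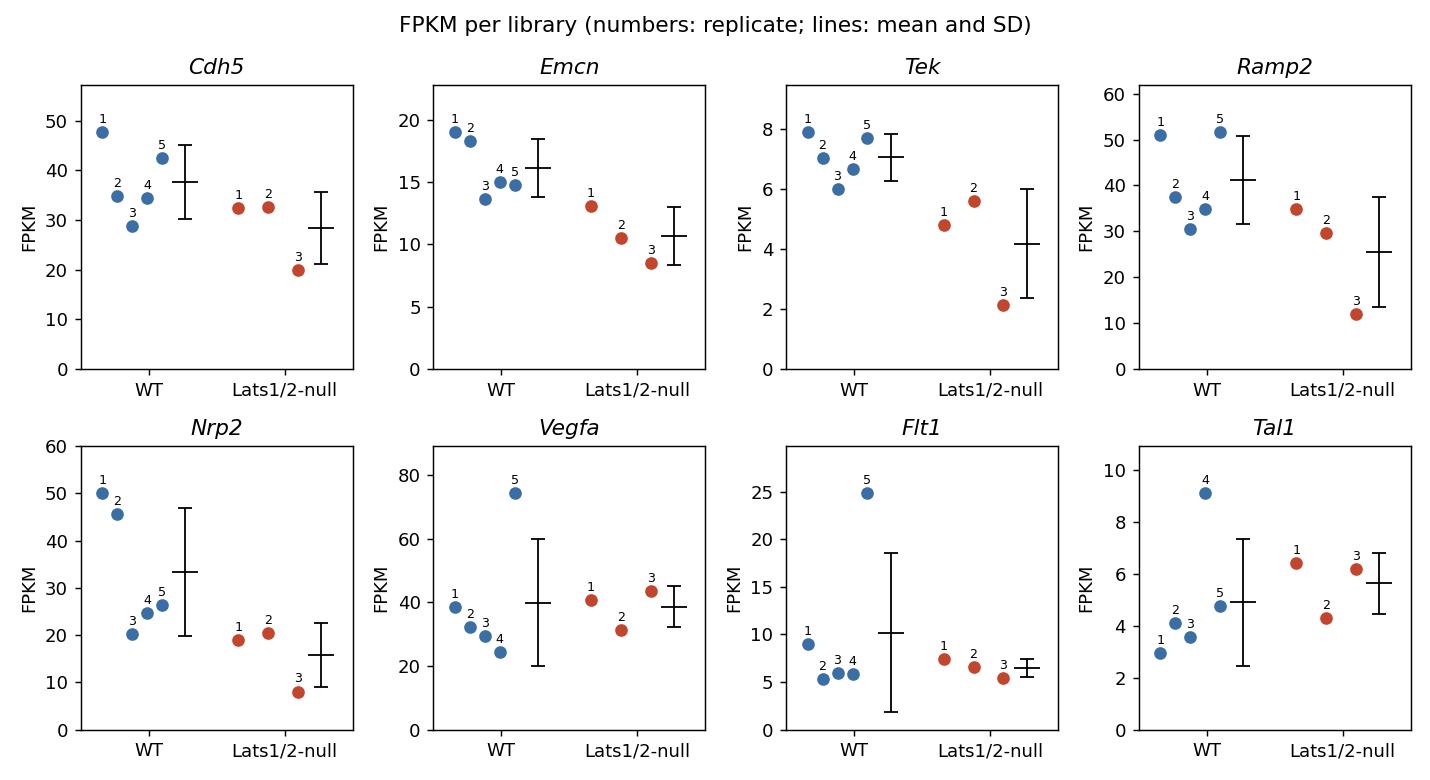
FPKM of 8 genes in every library (points, with the replicate number above; blue, WT; red, Lats1/2-null), with the group mean and SD drawn beside them (n = 5 and n = 3). Emcn and Tek did not overlap between groups, Cdh5, Ramp2 and Nrp2 overlapped and had their lowest value in Lats1/2-null 3, and Vegfa and Flt1 were set apart in WT 5 and Tal1 in WT 4.

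Of the 9 transcription factors, 7 had a lower mean in the Lats1/2-null libraries (median log2 fold change -0.23), as did 53.1% of all tested genes. Fli1, an ETS factor of endothelium and megakaryocytes, was at 10.05, 10.7, 8.25, 9.22 and 10.3 FPKM in WT and 7.96, 8.19 and 7.43 FPKM in Lats1/2-null libraries. The groups did not overlap, with 8.25 FPKM in WT 3 just above 8.19 FPKM in Lats1/2-null 2, and the change was small (log2 fold change -0.27 ± 0.10, SE, limma adjusted p = 0.356, exact permutation p = 0.0357). Its fellow ETS factors Erg and Ets1 had log2 fold changes of -0.15 and -0.23 with overlapping groups. Among the SOXF factors, Sox7 was at 5.97, 4.81, 3.87, 4.79 and 13.9 FPKM against 4.07, 3.20 and 3.90 FPKM. Sox18 was at 9.72, 6.93, 6.41, 8.85 and 16.9 FPKM against 5.86, 7.56 and 4.71 FPKM. Sox17, also a gene of the early endoderm, was at 1.38, 1.63, 0.865, 1.60 and 3.52 FPKM against 1.27, 1.51 and 0.946 FPKM. All 3 were highest in WT 5, at 2.86, 2.11 and 2.57 times the mean of the other WT libraries in that order. Without WT 5 their log2 fold changes went from -0.58, -0.55 and -0.26 to -0.31, -0.35 and -0.07.

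Tal1, Lmo2 and Gata2 are the factors shared with blood cells. Tal1, needed for the first blood cells as well as for endothelium, was at 2.95, 4.10, 3.56, 9.10 and 4.77 FPKM in WT 1 to 5 and 6.41, 4.28 and 6.19 FPKM in Lats1/2-null 1 to 3. WT 4 was the highest library and WT 1 the lowest, and the log2 fold change was 0.24 ± 0.28 (SE, limma adjusted p = 0.807). The red blood cell list had the same extremes, with a summed level of 15830 FPKM in WT 4 and 2636 FPKM in WT 1 among WT libraries and 8008 to 10211 FPKM in Lats1/2-null libraries. How far red blood cells contribute to Tal1 was not tested. Lmo2, a partner of TAL1, was at 7.13 to 11.1 FPKM in WT and 12.4, 9.98 and 7.55 FPKM in Lats1/2-null libraries (log2 fold change 0.06), and it was the member for which WT 5 was the lowest library. Gata2 was at 1.21 to 2.78 FPKM in WT and 1.32 to 1.74 FPKM in Lats1/2-null libraries (-0.10).

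The ligands were mixed. Of 5, 3 were lower and 2 higher on the log2(FPKM + 1) scale, with a median log2 fold change of -0.19 and none at an unadjusted p under 0.05 in limma, a call made for 4.99% of all tested genes in the lower direction and 6.29% in the higher. Vegfa, the main growth factor for endothelium, was at 38.6, 32.4, 29.4, 24.4 and 74.3 FPKM in WT and 40.6, 31.3 and 43.6 FPKM in Lats1/2-null libraries. WT 5 held the highest value, and the other libraries of both genotypes were interspersed. Means were 39.8 ± 20.0 FPKM (SD, n = 5) and 38.5 ± 6.42 FPKM (SD, n = 3). The Lats1/2-null mean was thus the lower in FPKM, whereas the log2 fold change was 0.05, with a 95% interval from -0.64 to 0.75. Without WT 5 the WT mean was 31.2 ± 5.94 FPKM and the log2 fold change 0.30 (limma adjusted p = 0.537). Vegfc, the ligand of FLT4, was at 5.06, 3.08, 2.77, 5.99 and 7.07 FPKM against 2.71, 5.12 and 1.81 FPKM (-0.47, limma adjusted p = 0.631). Its lowest values were in Lats1/2-null 3 and Lats1/2-null 1, and Lats1/2-null 2 was inside the WT range.

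Angpt1, the activating ligand of TEK made by mesenchyme and mural cells, was at 10.6, 11.3, 4.05, 4.86 and 5.83 FPKM in WT and 5.51, 6.68 and 3.87 FPKM in Lats1/2-null libraries (log2 fold change -0.32). As for Nrp2, WT 1 and WT 2 were the high libraries. Angpt2, the context-dependent TEK ligand released by endothelium, was at 4.52, 4.51, 3.33, 2.22 and 3.02 FPKM against 4.42, 2.40 and 4.51 FPKM (0.07). Apln, an apelin precursor gene expressed at the tips of growing vessels, was at 1.34, 1.118, 1.30, 0.903 and 1.23 FPKM against 1.17, 1.149 and 0.475 FPKM (-0.19). Apart from Lats1/2-null 3, its values were close together. Whether ligands and endothelial genes differed from each other in their response was not tested, and the interval for Vegfa takes in the median change of the endothelial genes.

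**Figure D3:**
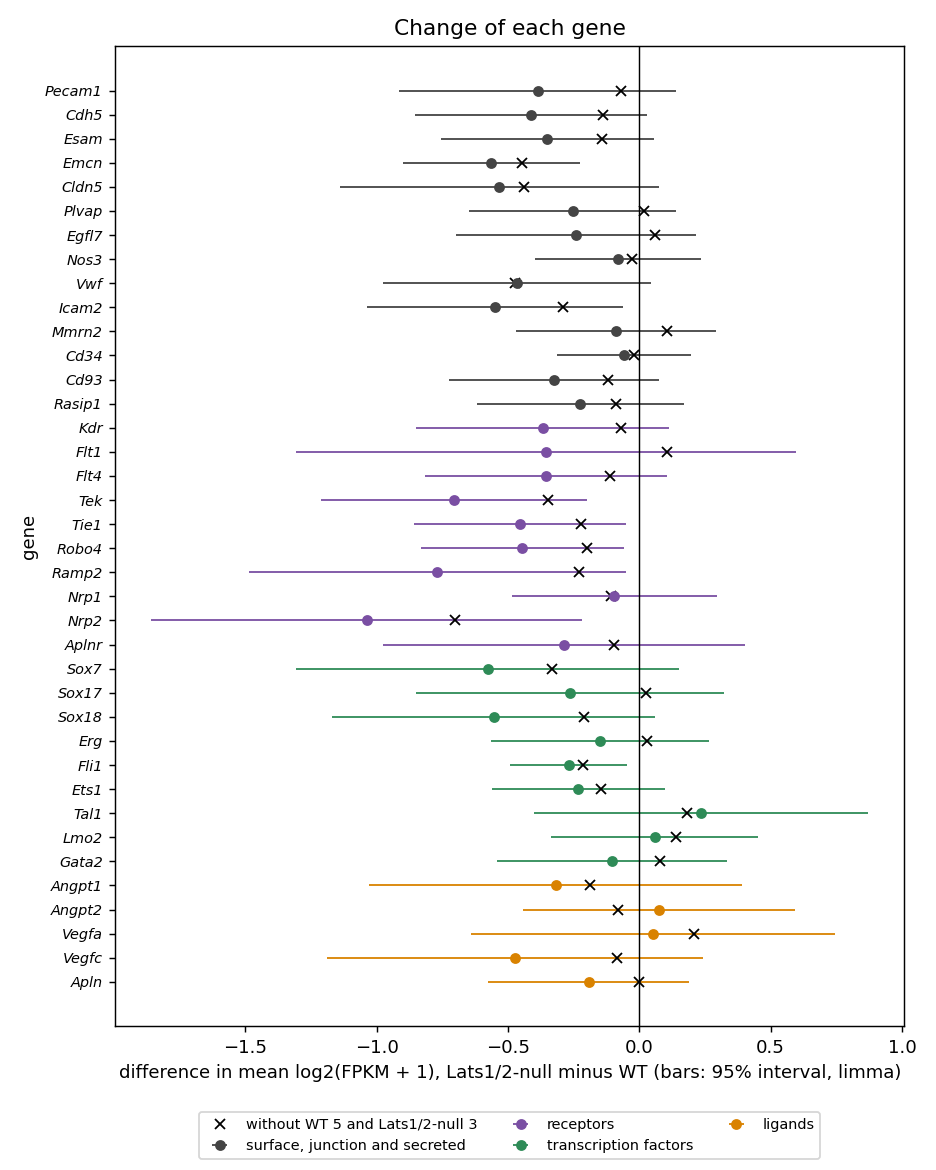
Difference in mean log2(FPKM + 1) between Lats1/2-null and WT libraries for each of the 38 genes (points, with 95% limma intervals; colour, role), and the same difference without WT 5 and Lats1/2-null 3 (crosses). Points lie below 0 for 34 genes, the intervals of 8 exclude 0, and most crosses lie nearer to 0 than the points.

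The lower level of endothelial genes rested in part on single libraries. Lats1/2-null 3 was the lowest of all libraries for 22 of the 33 endothelial genes, while WT 1 was the highest for 14 and WT 5 for 15. Without WT 1, 4 of 33 had an unadjusted p under 0.05, all lower (12.1%, beside 3.79% of all genes in that direction). Without WT 5, 30 of 33 were lower (52.6% of all genes), with a median log2 fold change of -0.23 and 5 at an unadjusted p under 0.05 (15.2%, beside 4.81% of all genes). Without Lats1/2-null 3, 28 of 33 were lower (53% of all genes), with a median of -0.20 and 2 at that threshold (6.06%, beside 2.19%). Without both WT 5 and Lats1/2-null 3, 24 of 33 were lower, with a median of -0.11, where 52.7% of all genes were below 0. In that comparison 3 were at that threshold (9.09%, beside 2.72%). By role, the medians without both were -0.10 for surface, junction and secreted proteins, -0.16 for receptors, 0.02 for transcription factors and -0.08 for ligands. The most negative log2 fold changes in that comparison were those of Nrp2 (-0.70), Vwf (-0.47), Emcn (-0.45), Cldn5 (-0.44) and Tek (-0.35). Cdh5 stood at -0.14 and Pecam1 at -0.07.

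Lats1/2-null 3 was also the library with the highest summed level of epithelial genes. The 26 epithelial genes summed to 333 to 433 FPKM in WT and to 739, 608 and 1502 FPKM in Lats1/2-null 1 to 3. In these sums, more epithelial cells and more RNA of these genes per cell cannot be told apart. Of the 25 tested, 24 were higher in Lats1/2-null libraries and 21 had an unadjusted p under 0.05 in that direction (6.29% of all genes), with a median log2 fold change of 1.08 and none at an adjusted p of 0.05 in limma. Krt19, a keratin of ductal epithelium, was at 2.13 to 4.05 FPKM in WT and at 13.4, 15.3 and 47.0 FPKM in Lats1/2-null libraries. Mesenchyme genes went the other way, as 21 of them summed to 987 to 1115 FPKM in WT and to 766, 977 and 562 FPKM in Lats1/2-null 1 to 3. Of the 18 tested, 16 were lower (median -0.42), 5 of them at an unadjusted p under 0.05 (27.8%, beside 4.99% of all tested genes). A single gene was higher at that threshold, beside 6.29% of all tested genes. Pdgfra, a receptor of mesenchyme cells, was at 35.5 to 87.8 FPKM against 35.0, 31.8 and 19.9 FPKM. Pericyte and smooth muscle genes were lower for 9 of 10 tested (median -0.32), with 3 at that threshold (30%, beside 4.99%), namely Abcc9, Notch3 and Des. Higd1b was listed at 0 in every library. The contractile smooth muscle genes Acta2 and Tagln had log2 fold changes near 0 (-0.0062 and -0.067) and higher FPKM means in Lats1/2-null libraries. Acta2 was at 1.04 to 6.44 FPKM in WT and at 1.155, 1.23 and 8.93 FPKM in Lats1/2-null 1 to 3, and Tagln at 1.32 to 6.56 FPKM against 2.65, 1.11 and 9.18 FPKM. Both were highest in Lats1/2-null 3, as was Myh11, a smooth muscle myosin below the level needed for the test, at 0.707 FPKM. The part that differing amounts of epithelium, mesenchyme or mural cells play in the lower endothelial values was not tested.

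When each endothelial gene was divided by Cdh5 of the same library, the groups overlapped for 32 of 32 genes, as did 92.7% of all other tested genes divided in the same way. For Tek the ratio was 0.165 to 0.208 in WT and 0.106 to 0.171 in Lats1/2-null libraries, and for Emcn 0.348 to 0.525 and 0.322 to 0.425. The ratio of Tie1 to Cdh5 ran from 0.255 to 0.283 in WT and from 0.241 to 0.260 in Lats1/2-null libraries. For Nrp2 the ratio was 0.619 to 1.31 against 0.405 to 0.630.

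**Figure D4:**
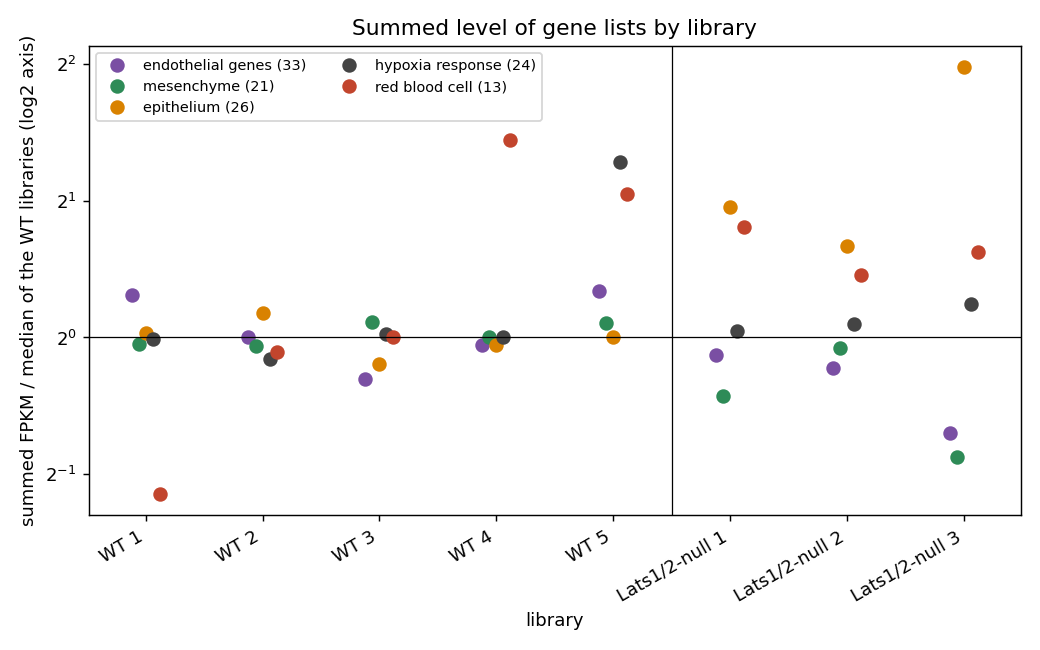
Summed FPKM of 5 gene lists in each library, divided by the median of the 5 WT libraries (log2 axis; the number of genes in brackets). The epithelial sum is highest and the endothelial and mesenchyme sums lowest in Lats1/2-null 3, the hypoxia sum is highest in WT 5, and the red blood cell sum is lowest in WT 1 and highest in WT 4.

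WT 5 differed from the other WT libraries in the genes that respond to low oxygen. It was the highest of all 8 libraries in 23 of the 24 hypoxia response genes, Hif1a being the exception. Bnip3, a mitophagy receptor, was at 75.6 FPKM in WT 5, which is 6.98 times the mean of the other WT libraries. Ndrg1 stood at 4.90 times, Ddit4 at 4.70 times and the glycolytic gene Aldoa at 3.05 times that mean. The members highest in WT 5 relative to that mean were Flt1 (3.81 times), Sox7 (2.86 times), Sox17 (2.57 times), Vegfa (2.38 times) and Sox18 (2.11 times). In 4 of the 38 (Flt1, Sox7, Sox17 and Vegfa) WT 5 stood apart from the other WT libraries by a gap above the critical value of 0.71 of the range, which held for 2.81% of all tested genes. Adm, which encodes adrenomedullin, was at 9.59 FPKM in WT 5 and between 0 and 0.157 FPKM in the other WT libraries. At the other end, Aplnr (0.523 times), Cldn5 (0.532 times), Lmo2 (0.709 times) and Nrp2 (0.749 times) were below the mean of the other WT libraries. The hypoxia list had 22 of 24 genes below 0 with all libraries (median log2 fold change -0.21) and 12 of 24 without WT 5 (median 0.00012), and 0 of 24 had an unadjusted p under 0.05 with all libraries in limma. The part of oxygen supply or handling in the values of WT 5 was not tested.

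**Figure D5:**
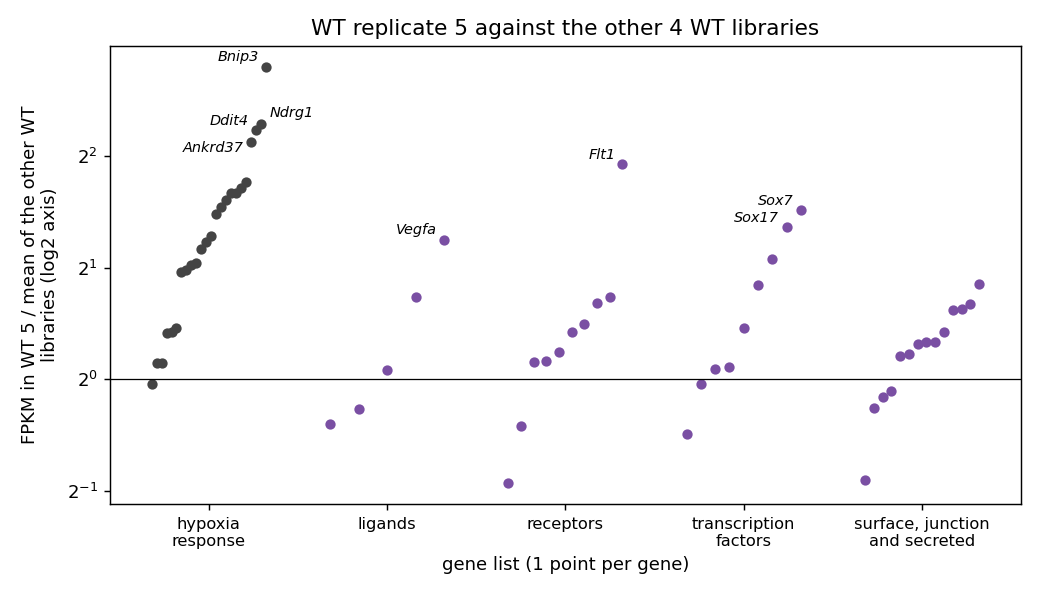
Level in WT 5 divided by the mean of the other 4 WT libraries for each hypoxia response gene and each of the 38 members by role (1 point per gene, log2 axis, line at 1). Bnip3, Ndrg1, Ddit4 and Ankrd37 lead the hypoxia genes, while Flt1, Sox7, Sox17 and Vegfa are the members farthest above 1.

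Further endothelial genes outside the 38 were also mostly lower. Of 34 in the table, 31 were tested, of which 26 were lower (median log2 fold change -0.25), 9 at an unadjusted p under 0.05 (29%, beside 4.99%). Efnb2, the ephrin ligand of arterial endothelium, was at 42.3, 31.9, 37.7, 29.5 and 39.4 FPKM in WT and 23.5, 25.1 and 18.0 FPKM in Lats1/2-null libraries. The groups did not overlap (log2 fold change -0.68, limma adjusted p = 0.146). Stab1, a scavenger receptor of sinusoidal endothelium and macrophages, was at 5.37 to 7.86 FPKM against 4.78, 4.66 and 4.32 FPKM, also without overlap. Nr2f2, a factor of venous endothelium that mesenchyme also makes, had the highest level of the list, at 168 to 194 FPKM in WT and 157, 174 and 92.8 FPKM in Lats1/2-null libraries. Ephb4, the venous receptor for ephrin B2, stood at 44.3 to 53.4 FPKM against 43.1, 48.0 and 42.7 FPKM (-0.11). Which cells of the bud made the RNA of Efnb2 and Ephb4 was not tested. The 1 gene higher at that threshold was Prox1, a lymphatic factor that pancreatic progenitors also express and that is in the epithelial list too. Without WT 5 and Lats1/2-null 3, 24 of 31 were lower (median -0.15), where 52.7% of all genes were below 0. In that comparison 1 was at that threshold (3.23%, close to the 2.72% of all genes).

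Other genes of the VEGF, angiopoietin, apelin and guidance pathways were mixed. Of 19 tested, 12 were lower and 7 higher (median log2 fold change -0.13), with 2 (10.5%) at an unadjusted p under 0.05 in each direction. Over all tested genes the shares were 4.99% lower and 6.29% higher. The list members lower at that threshold were Sema3a, a neuropilin ligand (4.13 ± 0.81 FPKM in WT, SD, n = 5, and 2.37 ± 0.87 FPKM in Lats1/2-null libraries, SD, n = 3), and Slit2, a roundabout ligand (18.3 ± 3.59 and 11.2 ± 4.70 FPKM). Those higher were the class 3 semaphorins Sema3c (6.72 ± 1.147 and 10.4 ± 3.34 FPKM) and Sema3f (13.1 ± 1.70 and 16.6 ± 2.38 FPKM). Their adjusted p-values in limma lay between 0.322 and 0.369. Vegfb, a ligand of FLT1, was at 41.1 to 57.5 FPKM against 39.5, 45.5 and 37.7 FPKM.

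Blood cell genes did not share the lower values. All 12 tested red blood cell genes were higher in mean log2(FPKM + 1) in Lats1/2-null libraries (median log2 fold change 0.50), none with an unadjusted p under 0.05 in limma. In FPKM the embryonic globin Hbb-bh1 had the lower mean there, 1190 FPKM beside 1215 FPKM in WT. The spread among WT libraries, from 2636 to 15830 FPKM in the sum, took in all 3 Lats1/2-null libraries. Megakaryocyte and platelet genes had 8 of 10 higher (median 0.06, none at that threshold). Macrophage genes had 9 of 13 higher (median 0.22), with 1 at that threshold, beside 6.29% of all tested genes in that direction. It was Fcer1g, an Fc receptor chain at 1.96 to 2.41 FPKM in WT and 3.17, 5.39 and 3.73 FPKM in Lats1/2-null libraries (limma adjusted p = 0.196).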

How the data were processed

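Per the labels and the study's methods, the authors trimmed reads (cutadapt 1.12), aligned them to mouse build mm10 (TopHat2 2.1.0) and computed 1 FPKM value per gene and bud (Cufflinks and Cuffdiff 2.2.1). The methods mention quantile normalization, but the deposited FPKM columns differ in their distributions. They were used unchanged, 24341 genes by 8 libraries. FPKM are not counts, so no count model or counting interval was used. Genotype and replicate number are from the labels, and p-values measure the spread between these libraries.

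The 13777 genes whose mean reached 0.5 FPKM entered the test. The main model was limma (version 3.58.1, R 4.3.3) fitted to log2(FPKM + 1), its prior variance following a trend on mean level, and Benjamini-Hochberg adjustment was made over all tested genes. Fold changes on this scale understate the change of low genes. Exact two-sided permutation tests enumerated the 56 ways to choose 3 of 8 libraries. The model was first run on simulated data with independent genes. The changes set there were larger than that of any member, and no effect was shared within a library. That run thus cannot speak to smaller changes or to shared effects. Members, lists and tests were chosen with earlier results of these data known. Lists are described by counts and medians beside all tested genes. Named genes are Lats1, Lats2, the 38 members and, from each other list, the 3 with the smallest p and the 2 with the highest mean, of which those that add to the members' results are given. Sema3f, Prox1, Bnip3, Ndrg1, Ankrd37, Hif1a, Adm, Higd1b, Acta2, Tagln, Myh11 and Hbb-bh1 were named after their values had been seen. The other lists cover further endothelial genes, VEGF and guidance signals, hypoxia response, pericytes, red blood cells, megakaryocytes, macrophages, mesenchyme and epithelium.

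Settings varied were the pseudocount (0.1), the filter (2 FPKM or none), scaling between libraries (quantile or median-ratio), array weights, the trend, a block for the replicate number, and the omission of each library. Omitting WT 5 and Lats1/2-null 3 together was added after seeing the data. Promoters came from the RefSeq table of GRCm38.p6. Gene positions follow the authors' table and count from 1. Plots were made in Python 3.11.15 with matplotlib 3.10.9.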

Additional observations from a re-analysis of the deposited data

Results flagged for a closer look

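In 4 of the 38 genes, 1 WT library lay far from the other 4, judged by the gap to its nearest neighbour as a share of the range of the 5 libraries, for which 0.71 is the critical value. The library was WT 5 and the highest in each case, with a share of 0.812 for Flt1, 0.791 for Sox7, 0.715 for Vegfa and 0.711 for Sox17. The summed level of the hypoxia response genes gave 0.921 in the same library. Chance marks about 1 in 20 groups, and 7.41% of all tested genes had such a WT library, while WT 5 was the high one in 2.81%. Leaving out WT 5 took the log2 fold change of Flt1 from -0.36 to 0.0044, of Sox7 from -0.58 to -0.31, of Sox17 from -0.26 to -0.07 and of Vegfa from 0.05 to 0.30. WT 5 was also the shallowest library, and the part of depth in these values was not tested.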

How the results depend on the processing

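No member reached an adjusted p of 0.05 under any of the 17 alternatives (lowest 0.113, for Tek). The number of calls over all genes, 2 in the fit reported, was 18 with a pseudocount of 0.1 FPKM, 174 with array weights, 1 without the mean-variance trend and 0 to 69 with 1 library left out. The count of endothelial genes with an unadjusted p under 0.05, 8 as reported (24.2%, beside 11.3% of all tested genes in either direction), ran from 2 without Lats1/2-null 3 (6.06% beside 5.7%) to 14 without WT 3 (42.4% beside 9.85%), was 4 without WT 1 (12.1% beside 9.37%), 5 without WT 2 (15.2% beside 10.5%) and 5 without WT 5 (15.2% beside 11.2%), and was 3 without WT 5 and Lats1/2-null 3 together (9.09% beside 6.55%). The median log2 fold change of the endothelial genes ran from -0.43 (without WT 3) to -0.20 (without Lats1/2-null 3) with 1 library left out, and was -0.11 without WT 5 and Lats1/2-null 3 together. The labels state no pairing of libraries by replicate number. Correlations of deviations were 0.085, -0.097 and 0.069 for equal numbers and -0.110 to 0.135 for unequal ones, which cannot decide whether libraries were paired. With the number as a replicate block 11 endothelial genes were under 0.05 (33.3% beside 9.19%, 10 of them lower) and 1 gene in the whole table was called. Of 642 values of single members, 616 kept their direction and 26, in 13 genes, turned. With array weights Egfl7 stood at 0.0064 and Gata2 at 0.0088, and under the block Gata2 at 0.0097 and Angpt2 at -0.13. With libraries left out, the pair included, log2 fold changes ran from -0.36 to 0.018 for Plvap, -0.39 to 0.061 for Egfl7, -0.18 to 0.10 for Mmrn2, -0.12 to 0.028 for Cd34, -0.50 to 0.10 for Flt1, -0.22 to 0.0065 for Nrp1, -0.50 to 0.071 for Aplnr, -0.39 to 0.024 for Sox17, -0.23 to 0.029 for Erg, -0.097 to 0.23 for Lmo2, -0.18 to 0.080 for Gata2, -0.080 to 0.30 for Angpt2 and -0.091 to 0.30 for Vegfa. The turns came without WT 5 for Flt1, Lmo2 and Gata2, without Lats1/2-null 3 for Mmrn2, Cd34, Aplnr, Vegfa and Angpt2, without Lats1/2-null 1 for Lmo2 and Angpt2, without Lats1/2-null 2 for Nrp1, without WT 3 for Vegfa, without WT 4 for Vegfa and Angpt2, and without the pair for Plvap, Egfl7, Mmrn2, Flt1, Sox17, Erg, Gata2 and Angpt2. The cause was not tested for any of these. The deposited FPKM carry no counts, so the counting precision of low genes such as Apln is unknown.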
